A study of Mus musculus with 9 samples.

Results

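Glucocorticoid target genes were examined as 1 set of 8 genes, Fkbp5, Tsc22d3, Sgk1, Nr3c1, Dusp1, Per1, Zbtb16 and Cebpd, in brain endothelial cells (ECs) of mice that differed in age and in endothelial KLF4. A peak, meaning a stretch of accessible chromatin called in a library, was a member when the authors' annotation gave it one of these gene names. This held for 337 of 253457 peaks. The set was selected on the list values of these libraries, because the Fkbp5 promoter peak was missing from both young WT Cre lists and high in old EC-K4KO lists, so the Fkbp5 promoter values are given as a description and were not tested. Omni-ATAC-seq, which marks open DNA with the Tn5 transposase, was run on sorted ECs, and each library has its own peak list. WT Cre mice carried the Cdh5 (VE-cadherin) Cre driver, labelled CdH5CRE, and EC-K4KO mice, labelled ECK4KO, carried the same driver with floxed Klf4. Both genotypes were on the C57BL/6J background, and the methods of the study give tamoxifen treatment for both. The driver acts in ECs of the whole body, not of the brain alone. Young mice gave 2 WT Cre and 3 EC-K4KO libraries, and old mice 2 of each genotype. The labels do not say whether libraries of a group came from separate animals, though the paper describes its ATAC-seq replicates as biological. The p-values measure the spread between libraries, and how much of it is technical is not known.

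Glucocorticoids are steroid hormones of the adrenal cortex that cross the membrane and bind the glucocorticoid receptor, encoded by Nr3c1. The bound receptor moves to the nucleus, binds DNA at glucocorticoid response elements (GREs) and changes the transcription of nearby genes. Fkbp5 encodes a co-chaperone of the receptor complex that lowers its hormone affinity and is itself induced by the hormone, forming a short negative feedback loop. Tsc22d3 encodes GILZ, Dusp1 a phosphatase that inactivates MAP kinases, Sgk1 a kinase that regulates ion transport, Per1 a component of the circadian clock, and Zbtb16 and Cebpd transcription factors. Glucocorticoids are known to tighten the blood-brain barrier through brain ECs.

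The lists were of very different length, and this touches each count below. Young WT Cre lists held 6157 and 9598 peaks, young EC-K4KO lists 23848 to 27992, old WT Cre lists 32555 and 43893, and old EC-K4KO lists 39079 and 45026. The depth of each library is unknown, because the lists give no read totals. Of 15 EC marker genes, 7 to 12 had a promoter peak in each library, and Cldn5, Erg, Flt1 and Tie1 had one in all 9, while Emcn had none. Microglial markers had none in any library. Of 8 pericyte and mural markers, 2, 5 and 3 had a promoter peak in old WT Cre 2, old EC-K4KO 1 and old EC-K4KO 2, and none in the other 6 libraries. Their part in the results on age and genotype was not tested. Up to 2 of 6 astrocyte, 1 of 6 oligodendrocyte and 2 of 6 neuronal markers had one. Klf4 had a promoter peak in all 9 libraries, which does not check the deletion, because the position of the deleted part is not given in the sources used here.

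The sequence at the peak that chose the set is shown first. It is the 250 bases before the RefSeq start site of Fkbp5 at chr17:28486149 on the minus strand (GRCm38.p6), from chr17:28486150-28486399. The whole stretch lay under the peak in 4 libraries, and at least 205 of its bases did in the other 3 with a peak. Capitals mark an E-box (CACGTG) and, read on the opposite strand, a KLF-type box (CCNCNCCC). No GRE match, written here as the half-sites GNACA and TGTNC with 3 bases of any kind between them, lay in this stretch, which says only that these letters were absent from it.
Fkbp5 promoter: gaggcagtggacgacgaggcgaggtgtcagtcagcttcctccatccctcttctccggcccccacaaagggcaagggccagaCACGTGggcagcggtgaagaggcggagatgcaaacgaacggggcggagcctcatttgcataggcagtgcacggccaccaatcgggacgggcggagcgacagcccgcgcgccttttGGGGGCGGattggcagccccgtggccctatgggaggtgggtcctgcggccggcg

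The next sequences are stretches of open chromatin of the other members that hold a GRE match. They are shown because they carry the recognition letters of the receptor, and only regions found in at least 4 libraries are printed. Each is printed with 20 bases on both sides of the match, on the strand of its gene, with the match in capitals. Coordinates are GRCm38. The first lies at chrX:140505946-140505998, downstream of Tsc22d3 and in no annotated gene. The second lies at chrX:140513535-140513587, also downstream of Tsc22d3.
Tsc22d3 +36.6 kb: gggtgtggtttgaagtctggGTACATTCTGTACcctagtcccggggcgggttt
Tsc22d3 +29.1 kb: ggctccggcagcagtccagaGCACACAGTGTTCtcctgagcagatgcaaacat
The Sgk1 stretch, at chr10:21993682-21993734, lies in the promoter region joined over libraries, and the Per1 stretch, at chr11:69097057-69097109, lies at -1.65 kb from the start site that the authors' annotation used, within an intron of a longer Per1 transcript.
Sgk1 promoter region: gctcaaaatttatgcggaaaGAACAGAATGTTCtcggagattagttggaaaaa
Per1 -1.65 kb: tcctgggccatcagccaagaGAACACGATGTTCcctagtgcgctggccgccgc
The Cebpd stretch, at chr16:15958951-15959003, lies 71.5 kb downstream of Cebpd, in an intron of the neighbouring gene Spidr. The Zbtb16 stretches lie in Zbtb16 introns at chr9:48723684-48723736, chr9:48737582-48737634 and chr9:48740244-48740296, and the last of these holds 2 overlapping matches.
Cebpd +71.5 kb: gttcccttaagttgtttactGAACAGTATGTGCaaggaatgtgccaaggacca
Zbtb16 +112 kb: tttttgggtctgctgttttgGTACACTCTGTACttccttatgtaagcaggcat
Zbtb16 +98.3 kb: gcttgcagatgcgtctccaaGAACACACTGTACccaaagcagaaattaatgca
Zbtb16 +95.6 kb: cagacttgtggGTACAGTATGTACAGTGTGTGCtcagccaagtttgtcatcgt

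Fkbp5, the co-chaperone gene, had no peak of any kind in young WT Cre 1 or 2. Its promoter peak, in the region chr17:28485805-28486478 over the first exon and start site, was present in each of the other 7 libraries. Fold enrichment, the signal over the local background of the same library, was 4.77, 10.4 and 11.1 in young EC-K4KO 1, 2 and 3. It was 12.04 and 14.5 in old WT Cre and 16.1 and 15.6 in old EC-K4KO. The old EC-K4KO values were the highest and did not overlap those of old WT Cre, which in turn lay above all 3 young EC-K4KO values. Group means were 8.77 ± 3.48 (SD, n = 3), 13.3 ± 1.73 (SD, n = 2) and 15.8 ± 0.342 (SD, n = 2). By -log10 p, where rank 1 is the strongest peak of a list, the Fkbp5 promoter held rank 4015, 2218 and 2153 in young EC-K4KO. It held rank 1881 and 1310 in old WT Cre, and 1188 and 1191 in old EC-K4KO. The order of the groups was therefore the same by fold and by rank. Of the 5097 genes tested below, 15% were likewise stronger in rank in both old EC-K4KO than in both old WT Cre libraries. No such share was taken for fold, or for old WT Cre against young EC-K4KO. Median fold over the whole list was 3.12, 4.55 and 4.50 in young EC-K4KO, 3.41 and 4.72 in old WT Cre and 4.75 and 5.35 in old EC-K4KO.

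The width of the Fkbp5 promoter peak was 674, 361 and 299 bp in young EC-K4KO, 332 and 307 bp in old WT Cre and 368 and 364 bp in old EC-K4KO. The widest was that of young EC-K4KO 1, the library with the lowest fold at this site and the lowest median fold over its whole list, 3.12. By fold alone the Fkbp5 promoter held place 53 of 32555 peaks in old WT Cre 2, place 59 of 45026 in old EC-K4KO 1 and place 62 of 39079 in old EC-K4KO 2. In old WT Cre 1 it held place 371 of 43893. In these 4 old lists 8.47% to 13.4% of promoter peaks were as narrow or narrower, against 74.03%, 21.1% and 10.7% in young EC-K4KO 1, 2 and 3. Among promoter peaks at least as high in fold, Fkbp5 itself included, 13 of 36 in old EC-K4KO 1 and 13 of 43 in old EC-K4KO 2 were as narrow. In old WT Cre 1 and 2 these were 21 of 298 and 3 of 40. In young EC-K4KO 1, 2 and 3 they were 1756 of 2574, 67 of 893 and 8 of 530.

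The young WT Cre lists reached well below the heights seen elsewhere at Fkbp5. The lowest fold called was 2.86 in young WT Cre 1 and 2.53 in young WT Cre 2, and 53.1% and 59.9% of their peaks lay under 4.77, the lowest Fkbp5 value. Promoter peaks with a fold of at least 10 numbered 17 and 29 in these lists. Fold is set against each library's own background, so it cannot be carried from library to library as a level. Absence from a list says that no peak was called, and in a pool of cells fewer open cells and less opening per cell cannot be told apart.

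**Figure D1:**
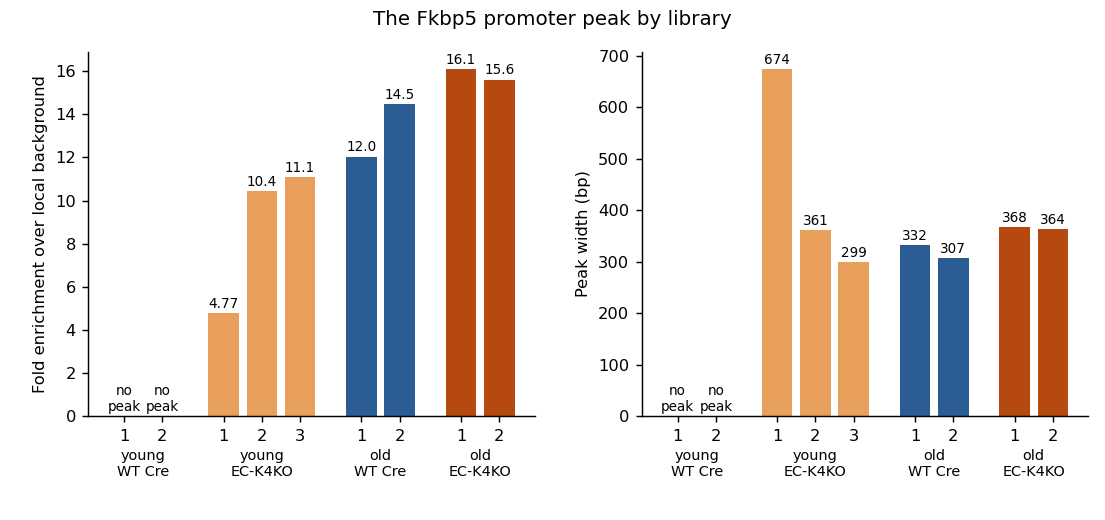
Fold enrichment over local background (left) and width in bp (right) of the Fkbp5 promoter peak, 1 bar per library, numbered by replicate within the 4 groups. Both young WT Cre libraries have no peak, fold runs from 4.77 in young EC-K4KO 1 to 16.1 in old EC-K4KO 1, and the widest peak, 674 bp, is in young EC-K4KO 1.

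Fkbp5 was not alone in this pattern. Of 11168 genes with a promoter peak in any library, 983 had none in either young WT Cre list and one in each of the other 7. Among those 983, Fkbp5 held place 11 by mean log2 rank and place 2 by mean fold over the 7 libraries. The genes with the most similar ranks over the same 7 libraries were Galns, Pold2, BC031181, Flywch1 and Ufsp2, with root mean square differences in log2 rank of 0.467, 0.511, 0.544, 0.556 and 0.601. Their fold values ran from 4.40 (Flywch1, young EC-K4KO 1) to 13.4 (Galns, old EC-K4KO 1), and Fkbp5 exceeded all 5 in both old EC-K4KO libraries. Of 25 other glucocorticoid-responsive genes in a list drawn up for this comparison, only Cdkn1c, a cell cycle inhibitor, had the Fkbp5 pattern. None of 16 genes of the receptor machinery had it.

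Beyond the promoter, Fkbp5 had 3 further regions, where a region joins the peaks of all libraries that share at least 1 bp. A region 57.3 kb into the gene, at chr17:28428567-28429185 over another annotated start site, had a peak in young EC-K4KO 3, old WT Cre 2 and both old EC-K4KO libraries, with folds of 3.78, 3.70, 4.31 and 3.59. The other 2 regions were each in 1 library. A longer Fkbp5 transcript starts at chr17:28517527 in GENCODE M21, and a peak lay within 500 bp of this start in young EC-K4KO 3 and all 4 old libraries, with folds of 2.94 to 4.47. The authors' annotation gives these peaks to the neighbouring gene Armc12, so they are outside the set. Peaks at that start and at the intronic one held rank 18688 to 33542, past the length of both young WT Cre lists.

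Across the 8 genes the longer lists held more member peaks. Young WT Cre libraries had 12 and 14, young EC-K4KO libraries 24, 34 and 40, old WT Cre libraries 53 and 41, and old EC-K4KO libraries 59 and 60. Nr3c1 varied most, with 0 and 1 peaks in young WT Cre, 2, 3 and 5 in young EC-K4KO, 12 and 6 in old WT Cre and 15 and 14 in old EC-K4KO. Many of the peaks that the annotation names for Nr3c1 lie within the neighbouring gene Arhgap26. Zbtb16 had 1 and 1 in young WT Cre, 3, 8 and 7 in young EC-K4KO, 8 and 7 in old WT Cre and 9 and 12 in old EC-K4KO. Per1 varied least, with 2 and 2 in young WT Cre and 4 in each of the other 7 libraries. When each list was cut to its 6157 strongest peaks, the length of the shortest list, member peaks numbered 12 and 12, then 15, 14 and 14, then 15 and 12, then 11 and 11 in the same order of groups. At equal list length the old EC-K4KO libraries therefore had the fewest.

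**Figure D2:**
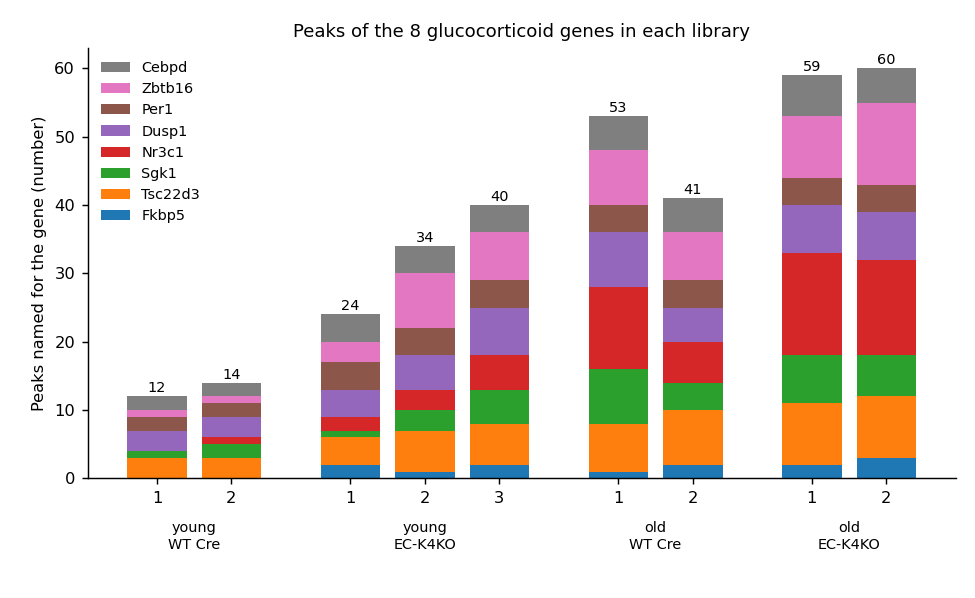
Number of peaks named for each of the 8 genes, stacked by gene, in each of the 9 libraries. Totals rise from 12 and 14 in young WT Cre to 59 and 60 in old EC-K4KO, and the Nr3c1 and Zbtb16 segments account for much of the difference in height.

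Of the 337 peaks, 131 were intergenic, 125 intronic and 73 of the promoter class. Outside the promoter class, member peaks made up 21.9 and 17.7 per 10000 such peaks in young WT Cre and 9.58, 14.4 and 15.1 in young EC-K4KO. They made up 12.3 and 13.2 in old WT Cre and 13.5 and 16.3 in old EC-K4KO. Averaged over age, the difference of EC-K4KO minus WT Cre was -2.31 per 10000, and averaged over genotype that of old minus young was -2.59. Both young WT Cre values, which rest on 6 and 9 peaks, lay above all others. No test was made of a share over members chosen with the results known.

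The promoters other than that of Fkbp5 did not share its pattern. Tsc22d3, Sgk1, Dusp1, Per1 and Cebpd had a promoter peak in all 9 libraries, against 20.4% of all genes with any promoter peak. Zbtb16 lacked one in young WT Cre 2 and young EC-K4KO 1, and Nr3c1 had none that the authors placed in the promoter class. Ranks were compared after setting each rank past 6157, and each missing peak, to 6158. The genotypes were compared at equal age, and the ages at equal genotype, by exact permutation of the library labels (two-sided, 60 arrangements, smallest possible p 0.0167) for 5097 genes with a rank within the limit in at least 2 libraries. Adjustment was by the Benjamini-Hochberg method over all genes tested. The 5 genes passed this filter, while Zbtb16 did not. By the adjusted p no gene passed 0.05 for genotype, for age or for genotype by age (0% called), and 304, 916 and 213 genes had an unadjusted p under 0.05.

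Sgk1, the ion transport kinase, had a promoter peak in every library. Its rank was 868 and 3074 in young WT Cre, 1211, 1601 and 1559 in young EC-K4KO, 2862 and 3406 in old WT Cre and 4010 and 4079 in old EC-K4KO. The old EC-K4KO ranks lay past all others, and the WT Cre groups overlapped. The age difference was 1875 ranks, with weaker ranks in old libraries (exact permutation p = 0.0333, adjusted p = 0.185). Mean fold did not move in that way in WT Cre, at 5.3 ± 1.18 (SD, n = 2) in young and 5.88 ± 0.0738 (SD, n = 2) in old libraries. In EC-K4KO it was lower in old libraries, at 7.06 ± 1.08 (SD, n = 3) in young and 5.87 ± 0.054 (SD, n = 2) in old. Cebpd, a transcription factor of the acute-phase response, had ranks of 2999 and 4164 in young WT Cre, 2364, 4190 and 3904 in young EC-K4KO, 5477 and 6052 in old WT Cre and 5857 and 6036 in old EC-K4KO. All 4 old ranks lay past all 5 young ones. The difference was 2322 ranks (exact permutation p = 0.0167, adjusted p = 0.146).

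Dusp1, the MAP kinase phosphatase, held rank 1645 and 1138 in young WT Cre, 701, 1402 and 1009 in young EC-K4KO, 1269 and 2606 in old WT Cre and 2283 and 1951 in old EC-K4KO. Old ranks were 813 weaker on average (exact permutation p = 0.05, adjusted p = 0.213), with overlap in WT Cre and none in EC-K4KO. Tsc22d3 (GILZ) held rank 2714 and 7911 in young WT Cre, 2152, 3925 and 6179 in young EC-K4KO, and 8183 to 9991 in the 4 old libraries. Because all old ranks and 2 young ones were past the limit, the age difference was 1901 (exact permutation p = 0.2, adjusted p = 0.427). Per1 held 2898 and 5001, then 4345, 4735 and 4787, then 5120 and 5543, then 3946 and 6059 in the same order of groups, with an age difference of 881 (exact permutation p = 0.283, adjusted p = 0.539). The Per1 values come from different promoter peaks in different libraries, as given with the widths below.

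At an unadjusted p under 0.05, then, 2 of the 5 promoters, those of Sgk1 and Cebpd, were weaker in old libraries and none was stronger, where 7.65% of all genes tested were weaker and 10.3% stronger. Ranks limited in this way did not overlap and were weaker in old libraries for Per1 and Cebpd in WT Cre, against 18% of genes, and for Sgk1, Dusp1 and Cebpd in EC-K4KO, against 17.8%. The median age difference was 1875 ranks for the 5 and -67.1 for all genes tested. The direction depended on the scale. Expressed as a percent of each library's own list, the old minus young difference of the same 5 promoters ran from -20.6 to -5.28 percentage points, meaning nearer the top of the list in old libraries. On that scale 2043 genes with an unadjusted p under 0.05 stood nearer the top in old libraries and 18 further down, against 526 and 390 by limited rank and 505 and 696 by fold. For genotype the 5 differences ran from -179 ranks (Tsc22d3) to 198 (Sgk1), with unadjusted p from 0.75 to 0.9, and none of the 5 was under 0.05, against 3.85% of all genes with a stronger and 2.12% with a weaker rank in EC-K4KO. These are 196 and 108 genes, where ranking by fold gave 100 and 181 and the percent of the own list 1537 and 8. For genotype by age the unadjusted p was 0.133 for Sgk1 and 0.45 to 0.8 for the other 4, so none of the 5 was under 0.05, against 3.02% of genes with a negative and 1.16% with a positive interaction.

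**Figure D3:**
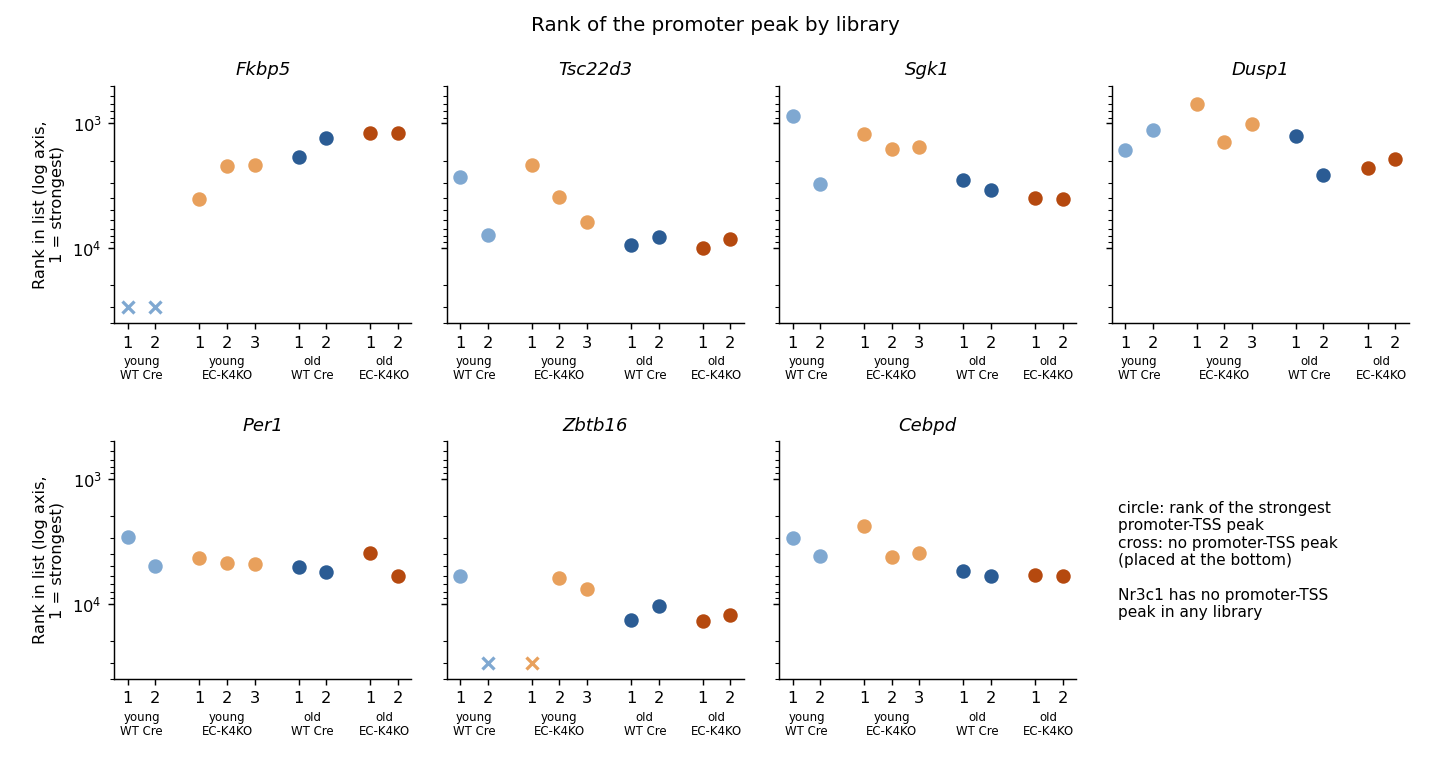
Rank in its list (log axis, stronger toward the top) of the strongest promoter peak of 7 genes in each library, with a cross at the bottom where a library has no promoter peak. Fkbp5 climbs from absence in young WT Cre to about rank 1190 in old EC-K4KO, whereas Sgk1 and Cebpd sit lower in the 4 old libraries than in the young EC-K4KO ones.

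Promoter peaks of the other members were broader in most groups than in young WT Cre, as most promoters were. Width was tested for 2279 genes with a promoter peak in all 9 lists, and no gene had an adjusted p under 0.05. At an unadjusted p under 0.05, 37.9% of genes were wider in EC-K4KO and 40.2% wider in old libraries. Sgk1 promoter peaks were 712 and 886 bp wide in young WT Cre, 885, 1561 and 1613 bp in young EC-K4KO, 1711 and 1636 bp in old WT Cre and 1719 and 1680 bp in old EC-K4KO. The 4 old widths lay within a narrow range above all young ones. The mean age difference was 610.5 bp (exact permutation p = 0.0667, adjusted p = 0.116). Tsc22d3 was 332 bp wider in old libraries (exact permutation p = 0.0333, adjusted p = 0.0828) and Per1 105 bp (exact permutation p = 0.0167, adjusted p = 0.0767). The Per1 value compares different peaks. The strongest lay at 1.13 kb in young WT Cre 2, old WT Cre 2 and both old EC-K4KO libraries, and at -0.116 kb in the others. At 1.13 kb alone, widths were 405, 266 and 339 bp in young and 287 and 362 bp in old EC-K4KO. At -0.116 kb they were 227, 284 and 264 bp in young and 326 and 310 bp in old EC-K4KO.

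Cebpd was the only 1 of the 5 with an unadjusted p under 0.05 for genotype. Its promoter peak was 757 and 685 bp wide in young WT Cre, 1000, 1082 and 1085 bp in young EC-K4KO, 940 and 996 bp in old WT Cre and 996 and 1029 bp in old EC-K4KO. The young EC-K4KO mean was the widest of the 4 groups, and its values overlapped those of old EC-K4KO. The mean genotype difference was 190 bp (exact permutation p = 0.0333, adjusted p = 0.0879). All 3 young EC-K4KO libraries were wider than both young WT Cre libraries for Dusp1, Per1 and Cebpd, as for 79.3% of genes tested, and all 5 genes were wider in both old WT Cre than in both young WT Cre libraries, as for 91.4%. The Fkbp5 promoter, absent from 2 lists, did not enter this test.

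Nr3c1, the receptor gene itself, showed its proximal open chromatin upstream of the start site used in the authors' annotation. The region at -3.26 kb holds other annotated Nr3c1 start sites in GENCODE M21 and had a peak in 8 of 9 libraries, all but young WT Cre 1. The rank of its strongest peak was 4431 in young WT Cre 2, 2828, 6459 and 4739 in young EC-K4KO, 11489 and 12932 in old WT Cre and 11699 and 9938 in old EC-K4KO. All 4 old ranks were past all young ones, while fold stayed between 4 and 6.53 in all 8. These ranks were not limited, and ranks of 9938 or more cannot occur in the young WT Cre lists of 6157 and 9598 peaks. Among regions found in all 9 libraries, 36.8% were weaker in rank with age in WT Cre and 32.2% in EC-K4KO. Width varied from 236 bp in young WT Cre 2 to 2256 bp in old WT Cre 2 and 2506 bp in old EC-K4KO 1. Nr3c1 also had the most regions, 17 of the 78 of the set, many of them within the neighbouring gene Arhgap26. Regions 109 kb (over Gm15337), 132 and 238 kb downstream (both within Arhgap26) had a peak in all 4 old and in no young library. Their best ranks were 25755, 21669 and 10565. Together with 1 such region at the end of Sgk1, 4 of 78 member regions had this pattern, against 3.81% of all 92495 regions. Among regions found in at least 2 libraries the shares were 7.02% and 8.91%.

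Per1 had the strongest peak of the set by -log10 p, though not by fold. A region at -3.99 kb from the start site used by the authors, chr11:69094554-69095313, lies over another annotated Per1 start site. It held rank 65 and 59 in young WT Cre, 53, 56 and 126 in young EC-K4KO, 165 and 68 in old WT Cre and 187 and 146 in old EC-K4KO. Fold lay between 7.28 and 9.39. The region at -1.65 kb, which holds the Per1 GRE match printed above, had no peak in young WT Cre and ranks of 8602, 10252 and 14888 in young EC-K4KO, 5607 and 6695 in old WT Cre and 9202 and 8460 in old EC-K4KO. Its fold was 2.23, 2.6 and 2.2 in young EC-K4KO, 3.21 and 3.18 in old WT Cre and 2.82 and 2.93 in old EC-K4KO. The lowest folds called in young WT Cre 1 and 2 were 2.86 and 2.53. All of its ranks but 5607 lay past 6157, the length of the shortest list. The strongest peak of the gene was thus called in all groups, and the weaker one between it and the main start was not called in young WT Cre. Of all regions found in at least 2 libraries, 9.21% likewise lacked a peak in young WT Cre only.

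Among regions present in all 9 libraries was one 97.2 kb downstream of Cebpd, in an intron of Spidr. It held rank 1710 and 5365 in young WT Cre, 2273, 4013 and 4018 in young EC-K4KO, 2626 and 2569 in old WT Cre and 1456 and 1458 in old EC-K4KO. Its fold was 5.93 and 4.42, then 6.66, 8.70 and 8.44, then 8.52 and 9.37, then 13.3 and 13.6. The old EC-K4KO libraries were the highest by both measures. At the Cebpd promoter they had the highest mean fold too, 6.83 ± 0.181 (SD, n = 2), but not the strongest ranks. The region 36.6 kb downstream of Tsc22d3, with a GRE match, had folds of 5.35 and 5.26, then 6.62, 9.65 and 7.46, then 7.71 and 7.84, then 11.8 and 9.02. It too was stronger in rank in both old EC-K4KO than in both old WT Cre libraries, 3020 and 4977 against 5019 and 5677. Member regions found in all 9 libraries numbered 10 of 78, against 5.27% of all regions, and 4 of the 10 were of the promoter class. Of these 10, 2 were stronger in this way, against 18.5% of such regions, and 3 were weaker, against 24.8%. None of the 10 had ranks that separated young EC-K4KO from young WT Cre, against 13.8% stronger and 22.4% weaker. With age, 5 of the 10 were weaker and none stronger in WT Cre, against 36.8% and 20.3%, and 6 were weaker and 1 stronger in EC-K4KO, against 32.2% and 21.7%.

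Counted over regions, 13 of 78 member regions (16.7%), from 7 of the 8 genes, had no peak in young WT Cre and a peak in at least 2 libraries of each other group, where 8.9% of all regions did. Among regions found in at least 2 libraries the shares were 22.8% of 57 and 20.8% of 39508. In lists cut to 6157 peaks, 1 of 19 member regions had this pattern, the Fkbp5 promoter itself, against 3.02% of all 10089 regions. Without the Fkbp5 promoter, which chose the set by this pattern, the count was 12 of 77 (15.6%), or 21.4% of 56 found in at least 2 libraries. Leaving out young EC-K4KO 2 or 3 lowered the count from 13 to 6. The 13 comprised 5 of Zbtb16, 2 each of Cebpd and Dusp1 and 1 each of Fkbp5, Nr3c1, Per1 and Tsc22d3. Between old EC-K4KO and old WT Cre, 5 regions of Nr3c1, Sgk1 and Tsc22d3 were in both libraries of the former and neither of the latter, against 4.76% of all regions, and the opposite held for none, against 0.427%. Among regions found in at least 2 libraries the 5 made up 8.77%, below the 11.1% of all such regions.

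**Figure D4:**
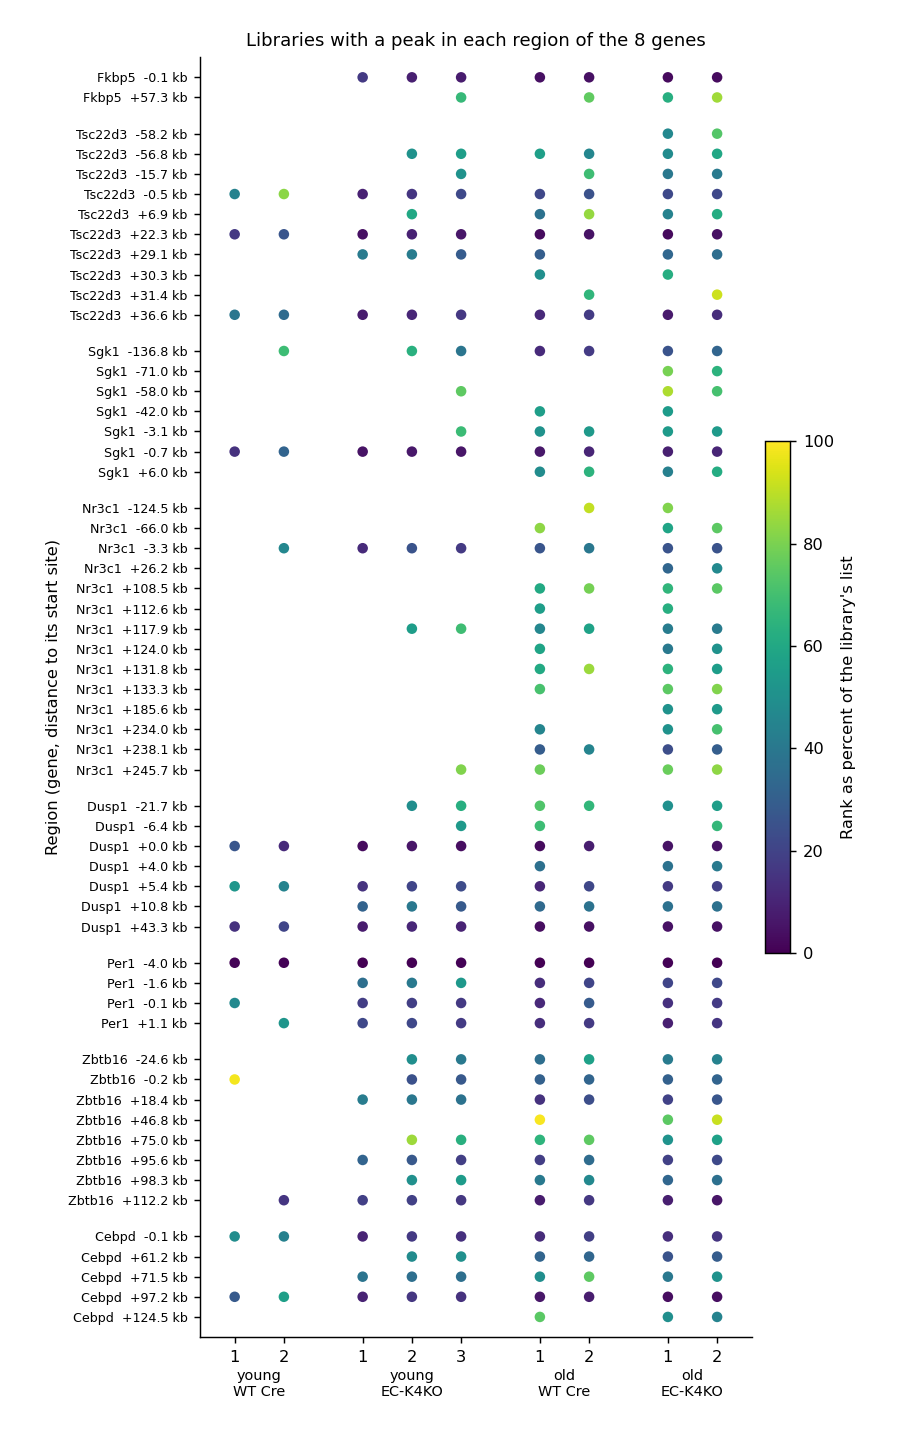
Each row is 1 of the 57 member regions found in at least 2 libraries, named by gene and distance to the start site, and each dot is a library with a peak there, coloured by the rank of the peak as a percent of the library's list (dark is strong). The young WT Cre columns are the emptiest, and 10 regions have a dot in all 9 columns.

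GRE letters were searched in all open regions. A match to the half-sites GNACA and TGTNC, 3 bases apart, which reads the same on both strands, lay in the central 400 bp of 7 of the 57 member regions found in at least 2 libraries (12.3%) and of 355 of all 39508 such regions (0.899%). Counted over whole regions, of median width 529 bp in the set and 608 bp over all, 9 of 57 (15.8%) and 1.5% had one. The 9 belonged to Zbtb16 (3), Tsc22d3 (2), Sgk1 (2), Per1 (1) and Cebpd (1), and Fkbp5, Nr3c1 and Dusp1 had none. Because the genes were picked as glucocorticoid targets, this is a description of the set and was not tested. A region joins the peaks of all libraries, so a library can have a peak in it that stops short of the match. The match itself lay under a peak in all 9 libraries for 1 of the 9 regions, that 36.6 kb downstream of Tsc22d3, and under no young WT Cre peak for 7. It lay under a peak in all 3 young EC-K4KO libraries for 5 regions, in both old WT Cre libraries for 6 and in both old EC-K4KO libraries for 7. No such counts were made over all regions, so these are not read as a result about GREs. The young WT Cre lists were the shortest, with 6157 and 9598 peaks. Of all 39508 regions, 40.8% had a peak in both old WT Cre libraries and none in young WT Cre. The Sgk1 promoter match was outside the peak in both young WT Cre libraries and young EC-K4KO 1, and the Cebpd match at 71.5 kb was under a peak only in young EC-K4KO 2 and old EC-K4KO 1.

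Zbtb16 had 3 GRE-holding regions of unequal strength. The region 112 kb into the gene had no peak in young WT Cre 1, rank 1478 in young WT Cre 2, 4518, 4877 and 4570 in young EC-K4KO, 3288 and 5261 in old WT Cre and 3827 and 2285 in old EC-K4KO. The region 95.6 kb into the gene was absent from young WT Cre and held rank 7560, 6925 and 5224 in young EC-K4KO, 7965 and 11329 in old WT Cre and 8791 and 8590 in old EC-K4KO. The third, at 98.3 kb, held rank 12557 to 17758 in 6 libraries. The best rank of the Zbtb16 promoter peak, 6043, was in young WT Cre 1, where it stood at 98.15% of that short list with a fold of 3.455. Young WT Cre 2 and young EC-K4KO 1 had peaks inside the gene but no promoter peak. Young WT Cre 1 had the promoter peak alone. Each remaining library had a promoter peak and a stronger peak inside the gene.

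For the other motifs the shares lay closer together. The central window held an AP-1 site (TGANTCA) in 17.5% of member regions and 14.7% of all, an E-box in 14% and 8.29%, a cAMP response element (TGACGTCA) in 5.26% and 1.63%, which is 3 member regions, and a KLF-type box in 61.4% and 50.2%. All were searched on both strands, and windows could hold several. The RefSeq table held promoters of 5 members, Sgk1, Per1, Dusp1, Fkbp5 and Tsc22d3. Of 32851 RefSeq promoters of 300 bp, 0.475% held a GRE match, and 1 of the 13 promoters of these 5 genes did, at Sgk1.

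**Figure D5:**
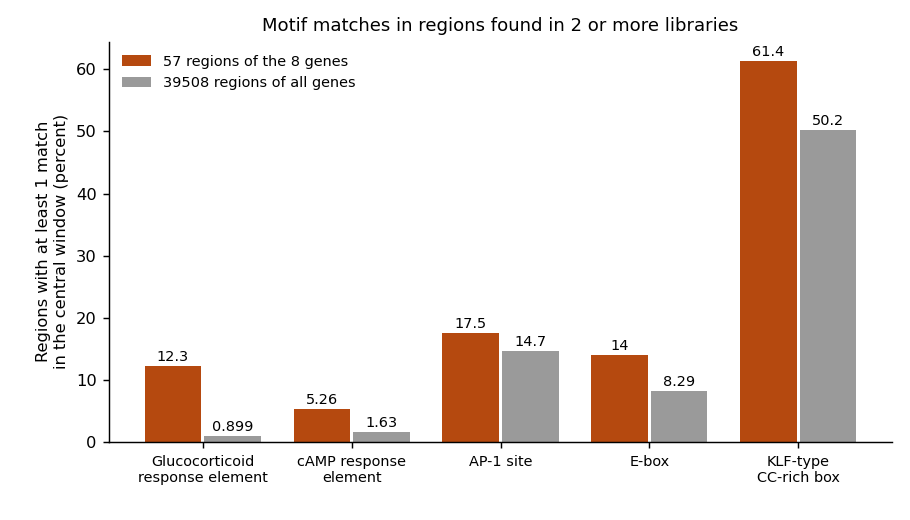
Percent of regions with at least 1 motif match in the central 400 bp, for the 57 member regions and the 39508 regions of all genes found in at least 2 libraries. GRE matches lie in 12.3% of member regions and 0.899% of all, and the KLF-type box in 61.4% of member regions and 50.2% of all.

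Genes outside the set that respond to glucocorticoids gave no adjusted call. Of 25 such genes 12 were tested for promoter rank and 8 for width, and at an unadjusted p under 0.05 none differed by genotype in rank. By age 2 of the 12 had an unadjusted p under 0.05 with weaker ranks in old libraries, against 7.65% of all genes, and none with stronger ranks, against 10.3%. They were Rhob, a small GTPase (214 ranks, exact permutation p = 0.0333, adjusted p = 0.185), and Tiparp, an ADP-ribosyltransferase (2959 ranks, exact permutation p = 0.0333, adjusted p = 0.185). For width, 3 of the 8 had an unadjusted p under 0.05 for a wider peak in EC-K4KO and 4 of the 8 in old libraries, near the 37.9% and 40.2% of all genes. Of 16 genes of the receptor machinery 11 were tested for rank. By genotype 1 of the 11 had an unadjusted p under 0.05 with a stronger rank in EC-K4KO, against 3.85% of all genes. None had one with a weaker rank, against 2.12%. The promoter of Hsp90aa1, a chaperone that holds the receptor ready for hormone, differed by -1770 ranks between EC-K4KO and WT Cre (exact permutation p = 0.0167, adjusted p = 0.494). It held rank 3036 and 2143 in young WT Cre and 1396, 1164 and 1104 in young EC-K4KO, and 2320 and past the limit in old WT Cre and 2266 and 1870 in old EC-K4KO. Both EC-K4KO groups lay ahead of the WT Cre libraries of their age, as for 15.1% of 5097 genes in young and 15% in old libraries. The difference of -1770 counts old WT Cre 2 as 6158.

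By age no machinery promoter passed the adjusted threshold, and at an unadjusted p under 0.05 1 of the 11 had stronger ranks in old libraries and 2 weaker ones, against 10.3% and 7.65% of all genes. Stip1, a co-chaperone that links HSP70 to HSP90, moved from rank 98 and 188 in young WT Cre and 145, 187 and 135 in young EC-K4KO to 18 and 42 in old WT Cre and 44 and 23 in old EC-K4KO. The groups of different age did not overlap (exact permutation p = 0.0167, adjusted p = 0.146). Hsp90ab1 went from 2285 to 4959 in young libraries to past the limit of 6157 in all 4 old ones, and Nrip1, a nuclear receptor corepressor, from 2645 to 4146 to at least 5122 (exact permutation p = 0.0167, adjusted p = 0.146 for each).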

How the data were processed

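The authors prepared Omni-ATAC-seq libraries from flow-sorted mouse brain ECs, trimmed reads with TrimGalore, mapped them to mm10 (GRCm38) with Bowtie2, removed duplicates and called broad peaks with MACS2 in each library alone. The tools Bowtie2 and MACS2 are named in the submitters' processing notes. The deposited lists give a score, a fold ratio over local background, a -log10 p and a -log10 q for each peak, and the authors' annotation (HOMER format, per the file headers) gives a class, a distance to the nearest start site in bp and a gene name. No read counts were analysed here, so the depth is unknown, and the study's read-count test of accessibility could not be run.

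Members, gene lists and motifs were chosen with earlier results of these data known. The genes named were the 8 members, the genes of the marker and glucocorticoid lists, and the 5 genes closest to Fkbp5 in log2 rank. Peaks were ranked within each list by -log10 p, and ranks were limited to 6157. Genotype, at equal age, and age, at equal genotype, were tested by two-sided exact permutation of library labels, with Benjamini-Hochberg adjustment over 5097 genes for rank and 2279 for width and a threshold of 0.05. A single contrast cannot give a p below 0.33 with 2 against 2 libraries or below 0.1 with 3 against 2. Alternatives used limma 3.58.1 in R 4.3.3. The tests were checked on simulated ranks. Regions joined peaks sharing at least 1 bp. Motifs were counted in the GRCm38 sequence, and promoters were taken from RefSeq (GRCm38.p6). Library names in the labels carry 1 prefix for young and another for old libraries. What the prefix stands for is not given, so it cannot be told apart from age. Whether replicate numbers pair the libraries is not known. Correlations of deviations between libraries of the same number were -0.02 to 0.087, which with so few libraries per group cannot exclude pairing. Computation used Python 3.11.15, pandas 2.3.3, numpy 2.4.6, pysam 0.24.0 and matplotlib 3.10.9.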

Additional observations from a re-analysis of the deposited data

How the results depend on the processing

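No gene had an adjusted p under 0.05 in any of the 5 comparisons of promoter rank or width by permutation or under any alternative run with that test. This is no sign of stability, because with a smallest p of 0.0167 an adjusted p under 0.05 needs at least 1700 of 5097 genes (33.4%) for rank or 760 of 2279 for width at that p, and 113 to 583 genes for rank and 495 and 524 for width reached it. With limma on log2 rank 560 genes passed for age (337 stronger, 223 weaker; 11% of 5097) and 0 for genotype, where 534 had an unadjusted p under 0.05. Of 382 alternative values for single members 1 passed, Cebpd weaker with age by limma (0.764 on the log2 scale, adjusted p = 0.0473). Leaving out a young EC-K4KO library raises the smallest possible p to 0.0556, so such fits cannot pass. With the replicate block, in which libraries were paired by number, 0 genes passed for rank or width, but its smallest possible p is 0.125. Whether the numbers pair the libraries is not known, and correlations of -0.02 to 0.087 cannot settle it.

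The count of 13 member regions absent from young WT Cre was 1 in lists cut to equal length and ran from 6 to 17 when single libraries were left out, 6 without young EC-K4KO 2 or 3. It was 13 with peaks of q under 0.05 or a stricter overlap. The difference in share outside promoters ran from -3.357 to -1.259 by genotype and from -3.637 to -1.539 by age when single libraries were left out. With all libraries, each was an average of differences of opposite sign.

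The 41 changes of sign all concern differences without an adjusted call. As a percent of the own list, genotype differences were -8.112 (Sgk1), -16.89 (Per1) and -16.94 (Cebpd), age differences -16.77 (Tsc22d3), -5.279 (Sgk1), -6.418 (Dusp1), -20.56 (Per1) and -14.88 (Cebpd), and genotype by age -29.37 (Per1). Ranked by fold, Dusp1 gave 953.1 for genotype, and genotype by age gave 866 (Sgk1), 1906 (Dusp1) and 1243 (Cebpd). With a limit of 3000, genotype gave -204 (Sgk1) and -105.7 (Cebpd). Cebpd also gave -0.008518 on log2 rank, -0.01352 by limma and -61.25 in the replicate block, and Per1 gave -33.67 for genotype by age with any peak within 1000 bp of a start site. With single libraries left out, genotype ranges were -1040 to 682.2 (Tsc22d3), -353.2 to 749.8 (Sgk1), -421.6 to 246.9 (Dusp1), -356.3 to 700.2 (Per1) and -248 to 334.5 (Cebpd). For genotype by age they were -2080 to 1364 (Tsc22d3), -1202 to 134.8 (Dusp1), -54.67 to 2058 (Per1) and -860 to 305 (Cebpd), and for Per1 width by genotype -23.33 to 42.67 bp. The cause of these changes was not tested. Age differences in limited rank kept their sign in all 5 genes when any 1 library was left out. Unknown depth limits what absence from a list can show.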
